A study of Rattus norvegicus with 24 samples.

Results

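Messenger RNA of 9 genes of the collagenous heart matrix was followed in diabetic and control rat ventricles. The genes were the collagen chain genes Col1a1, Col1a2, Col3a1, Col5a1, Col5a2 and Col15a1, the small leucine-rich proteoglycan genes Lum (lumican) and Dcn (decorin), and P4ha1, which encodes the catalytic alpha subunit of prolyl 4-hydroxylase. Members were chosen by name, with earlier results of these data known. Every probe set of the Affymetrix RG-U34A array (a rat oligonucleotide array) whose platform annotation gives one of these symbols alone was taken. That gave 16 of the 8740 probe sets that are not array controls, and 9 of the 4736 genes with a symbol of their own. Col1a1 and Dcn each had 4 probe sets, Col3a1 had 2 and the other 6 genes had 1.

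Male Wistar rats of 150 g received a single injection. The diabetic rats were given streptozotocin, a toxin of the insulin-producing beta cells, at 65 mg/kg, and the control rats citrate buffer. Ventricles were taken after 3, 28 or 42 days, with 4 diabetic and 4 control rats at each day and 1 array per rat. The labels describe day 3 as free of symptoms, day 28 as a stage with diastolic dysfunction, and day 42 as one with diastolic and systolic dysfunction. Streptozotocin is a chemical model, so the rats differ from controls in the drug as well as in the insulin deficiency that follows it. Blood glucose at day 42 was 654 ± 126 mg/dL in diabetic rats and 132 ± 22.5 mg/dL in control rats (SD, n = 4 each). At the same day diabetic rats weighed 118 ± 6.19 g and control rats 432 ± 26.8 g (SD, n = 4 each). These diabetic rats, at 112 to 126 g, were below the 150 g at injection. The diabetic rats of day 28 weighed 205 to 265 g and the control rats 295 to 351 g. Ventricles of day 42 weighed 0.35 to 0.40 g in diabetic and 0.90 to 1.17 g in control rats. Those of day 28 weighed 0.50 to 0.65 g in diabetic and 0.71 to 0.90 g in control rats. The part of these weights in the signals was not tested.

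Type I and type III collagens form the fibrils of the heart's interstitial matrix, made mainly by fibroblasts as trimers of alpha chains. Type V collagen is a minor chain built into those fibrils that sets their diameter, while type XV collagen lies at the basement membranes of muscle cells and capillaries. Lumican and decorin bind fibril surfaces and regulate fibril assembly. Prolyl 4-hydroxylase hydroxylates prolines in the endoplasmic reticulum, a step that the triple helix needs to be stable at body temperature.

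Values are MAS5 signals, a linear brightness per probe set that the submitters scaled to a common trimmed mean. Array medians ran from 321 to 443, and arrays of the same group correlated at 0.938 to 0.975 (lowest and highest Pearson's r over all probe sets, log2 scale). All 16 member probe sets passed the filter on dim probe sets, which left 5244 probe sets for the tests. No array held a member at the floor of 30.5 signal units. All 8 arrays of day 42 were scanned on 1 day, from 1 chip lot and by 1 operator, whereas the 16 arrays of days 3 and 28 were scanned on 5 other days by another operator. The comparison of diabetic with control rats at day 42 was therefore made within a scan day, lot and operator, but a move between days cannot be told apart from a change of scan day or operator. Fluidics stations, which wash the arrays, were shared unevenly at the earlier days. At day 3 station 2 held 4 diabetic arrays and 1 control array, and station 1 held 3 arrays, all control. At day 28 station 2 held 1 diabetic array and 4 control arrays, and station 1 held 3 arrays, all diabetic. State and station are thus hard to tell apart at those days. Replicate 3 of the diabetic rats at day 42 stood apart from the other diabetic arrays in leukocyte and stromal transcripts. Its signal of Lyz2, the lysozyme of myeloid cells, was 18305, against 1311 to 2076 in the other 3 diabetic arrays and 2236 to 3461 in controls. Member results that rest on replicate 3 are given with and without it.

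At day 42 all 9 genes were lower in diabetic ventricles by their leading probe set, the brightest of each gene. Of the 16 probe sets, 14 were called lower and 0 higher (limma, adjusted p under 0.05 over all 5244 probe sets), where 5.63% of all tested probe sets were called lower. Because the genes were chosen with earlier results known, the count beside that share describes the list and does not test it. The median log2 change of the 16 was -1.37, beside -0.03 over all tested probe sets. On 13 of the 16 the 4 diabetic arrays all lay below the 4 control arrays, against 10.8% of all tested probe sets. By leading probe set, the type I, III and XV chains had the largest log2 changes and decorin the smallest.

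**Figure D1:**
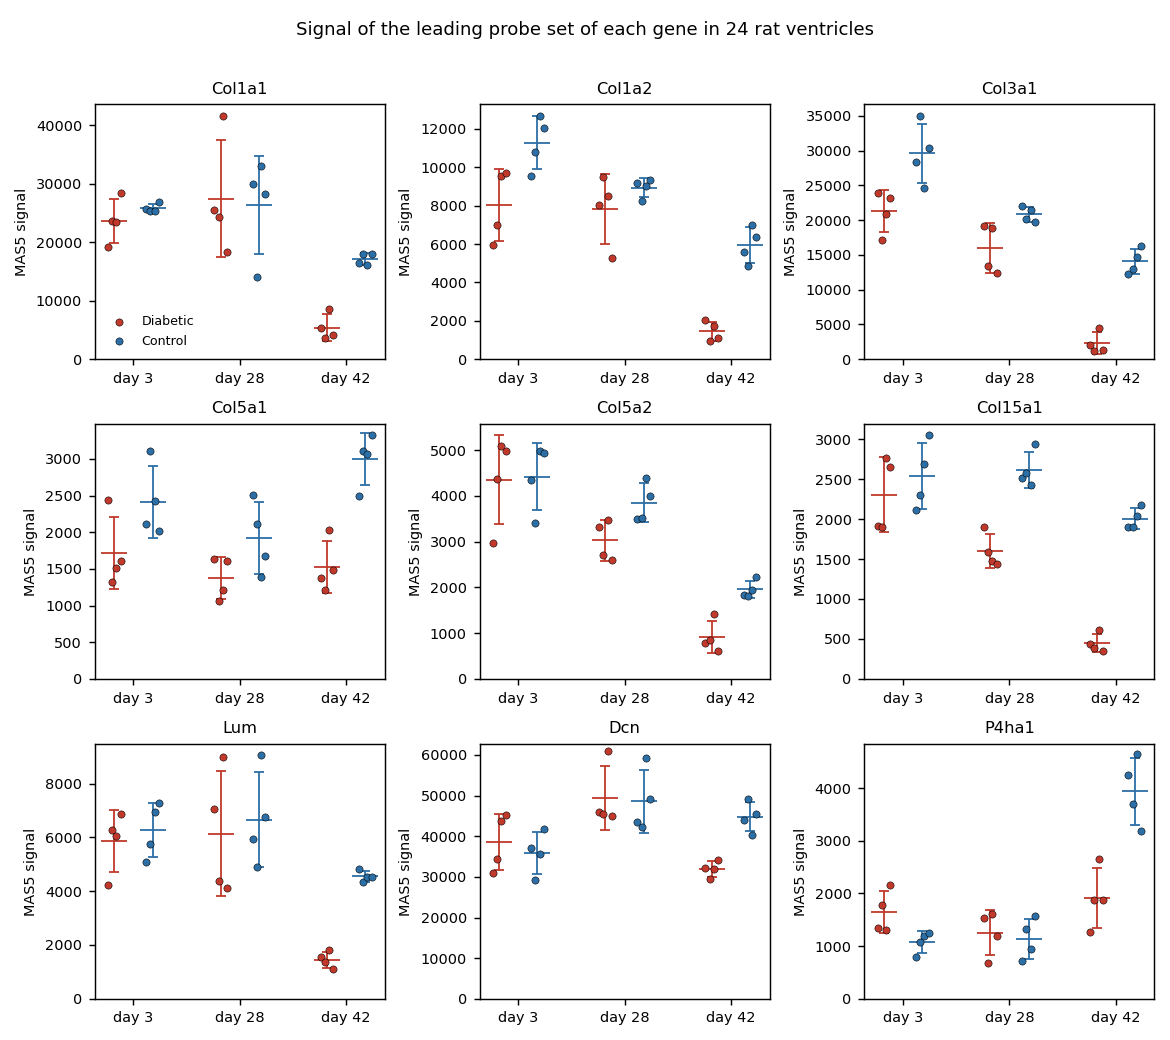
MAS5 signal (linear axis from 0) of the leading probe set of each of the 9 genes, by day, with diabetic rats in red left of control rats in blue. Points are single ventricles, bars the mean and SD of 4. At day 42 every red point lies below every blue point in all 9 panels, and in P4ha1 and Col5a1 the blue points of day 42 lie higher than those of day 28 on average.

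Among the fibril-forming chains, Col3a1 (probe set X70369_s_at), the single chain of type III collagen, had the largest log2 change of the 16 probe sets. Its day 42 signal was 2104, 1181, 4553 and 1256 in the 4 diabetic rats, against 12291, 12995, 14635 and 16339 in the 4 control rats. The diabetic arrays all lay below the controls, and the highest of them was replicate 3. The difference was 7.20-fold, a log2 change of -2.85 ± 0.27 (SE, limma adjusted p = 5.6e-08). Without replicate 3 it was -3.26 (adjusted p = 2.4e-11). The second Col3a1 probe set, M21354_s_at, had 1808, 1332, 2428 and 1449 in diabetic rats, against 5739, 5273, 7060 and 6682 in control rats. Its log2 change was -1.85 ± 0.22 (SE, limma adjusted p = 1.8e-06).

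Col1a1 encodes the alpha-1 chain of type I collagen, 2 of which join each trimer. Its brightest probe set, M27207mRNA_s_at, read 5331, 3596, 8598 and 4103 in diabetic rats at day 42, against 16404, 18008, 16040 and 17930 in control rats. The groups did not overlap, replicate 3 was again the highest diabetic array, and the log2 change was -1.74 ± 0.25 (SE, limma adjusted p = 2.6e-05). The other 3 Col1a1 probe sets changed by -2.01, -1.58 and -1.17 on the log2 scale, from brightest to dimmest, and all were called. For the dimmest the groups overlapped, because replicate 3 read 1619 and the lowest control 1579.

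Col1a2 (rc_AA875531_s_at) encodes the alpha-2 chain, the partner of the Col1a1 product. It had 2015, 940, 1744 and 1089 in diabetic rats at day 42, against 5578, 4875, 6991 and 6378 in control rats. The groups lay apart, at 4.28-fold or -2.10 ± 0.21 on the log2 scale (SE, limma adjusted p = 2e-07), and here replicate 1, not replicate 3, was the highest diabetic array.

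Col15a1 (rc_AA800298_at), the basement membrane-zone collagen, read 439, 393, 611 and 351 in diabetic rats at day 42, against 1900, 1900, 2043 and 2176 in control rats. Both groups were tight and far apart, a 4.56-fold difference. The log2 change was -2.19 ± 0.17 (SE), with the smallest adjusted p of the 9 genes in limma, 3.2e-09.

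The type V chains differed less. Col5a2 (rc_AI179399_at) read 792, 854, 1424 and 615 in diabetic rats at day 42, against 1836, 1811, 1952 and 2229 in control rats. Col5a1 (AJ005394_at) read 1376, 1211, 2028 and 1490 in diabetic rats, against 2495, 3109, 3069 and 3331 in control rats. In both genes the groups lay apart, with replicate 3 the highest diabetic array. The log2 changes were -1.15 ± 0.20 for Col5a2 (SE, limma adjusted p = 0.00027) and -0.99 ± 0.21 for Col5a1 (SE, limma adjusted p = 0.0019).

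Lum (X84039_at) had 1551, 1353, 1811 and 1102 in diabetic rats at day 42, against 4828, 4338, 4519 and 4540 in control rats. That was a 3.18-fold difference without overlap, -1.67 ± 0.22 on the log2 scale (SE, limma adjusted p = 8.5e-06). Dcn, the other small proteoglycan gene, had a smaller difference. Its leading probe set X59859_i_at had 32120, 29390, 31824 and 34218 in diabetic rats, against 44096, 49115, 40409 and 45504 in control rats. The groups lay apart, at 1.40-fold or -0.49 ± 0.14 on the log2 scale (SE, limma adjusted p = 0.019). The second Dcn probe set gave -0.48 ± 0.13 (SE, limma adjusted p = 0.014), also without overlap. The 2 dimmer Dcn probe sets overlapped between groups and were not called, at -0.63 ± 0.31 and -0.22 ± 0.47 (SE, limma adjusted p = 0.24 and 0.86). By their suffixes the brightest Dcn probe set is incomplete and the dimmest was designed under relaxed rules. The call on the brightest was lost without control replicates 2 or 4 or diabetic replicate 2, and that on the second without control replicate 1 or diabetic replicates 1 or 2, with log2 changes from -0.54 to -0.44 and from -0.59 to -0.39 over all settings.

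P4ha1 (X78949_at) read 1262, 1881, 2650 and 1875 in diabetic rats at day 42, against 4245, 3697, 4638 and 3184 in control rats. The 4 diabetic arrays lay below all controls, at 2.11-fold or -1.07 ± 0.27 on the log2 scale (SE, limma adjusted p = 0.0083).

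Leaving out replicate 3 left the number of called probe sets at 14 and made the difference larger for 13 of them, while that of the leading Dcn probe set stayed at -0.49. Within the arrays washed on fluidics station 1 (2 diabetic, 3 control) Col3a1 differed by -3.18 on the log2 scale, and within station 2 (2 diabetic, 1 control) by -2.44. All 16 probe sets were lower in diabetic rats on both stations.

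At the earlier days few of the 16 probe sets passed the test. At day 3, 0 of the 16 probe sets passed the test, where 0.934% of all probe sets did, and 5 had an unadjusted p under 0.05, against 10.2% of all probe sets. The median log2 change of the 16 was -0.14, beside -0.04 over all tested probe sets. Those 5 were Col1a2 at -0.51, Col5a1 at -0.51, the third Col1a1 probe set at -0.54 and the second Col3a1 probe set at -0.60, all lower in diabetic rats, and P4ha1 at 0.61, higher in diabetic rats. On the probe set of P4ha1 the 4 diabetic signals were 1296 to 2164, against 791 to 1245 in control rats at day 3.

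At day 28, 1 of the 16 probe sets was called, where 0.801% of all probe sets were called lower. It was Col15a1, with 1903, 1591, 1478 and 1439 in diabetic rats, against 2513, 2577, 2429 and 2940 in control rats. All diabetic arrays lay below the controls, and the log2 change was -0.71 ± 0.17 (SE, limma adjusted p = 0.019). The call was lost when 1 of 3 arrays was left out in turn (control replicate 4 or diabetic replicates 3 or 4), with medians centred, with only the 2 groups of day 28 in the fit, and with the station as a block, at values from -0.80 to -0.61. Col3a1 read 12463 to 19206 in diabetic rats and 19784 to 22010 in control rats at day 28, without overlap, and its log2 change of -0.41 ± 0.27 was not called (SE, limma adjusted p = 0.60). Lum overlapped widely at that day, at 4109 to 8993 in diabetic rats and 4905 to 9073 in control rats.

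**Figure D2:**
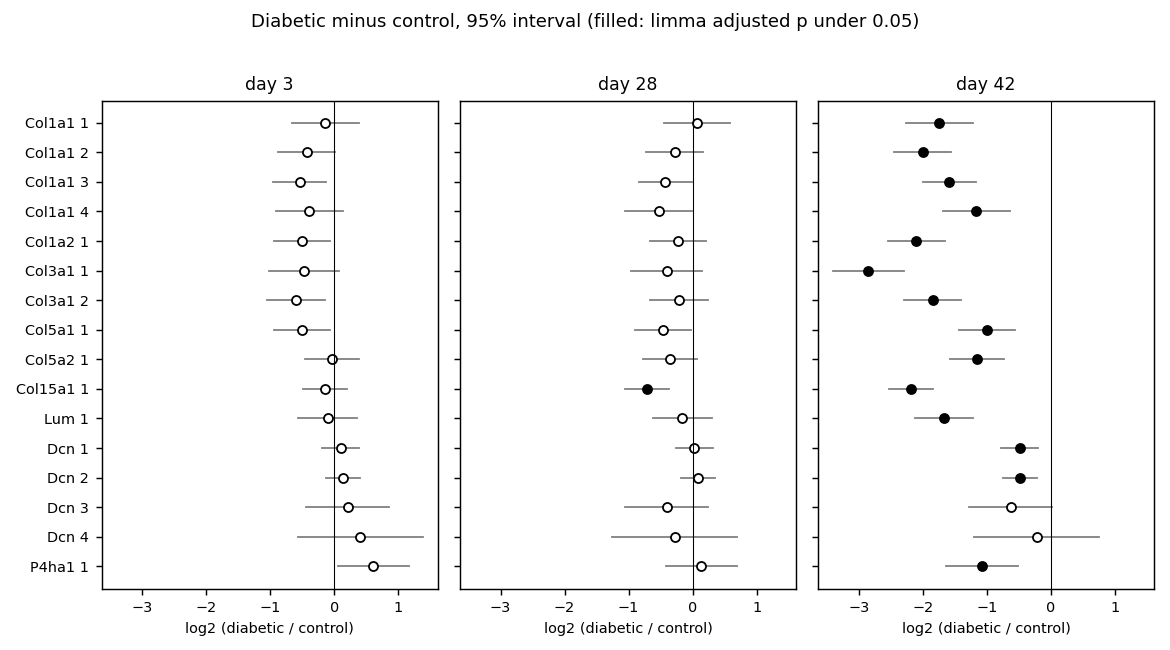
Log2 difference between diabetic and control rats (x axis) of the 16 probe sets (y axis, numbered within a gene from brightest to dimmest) at days 3, 28 and 42. Lines are 95% intervals of 4 against 4 arrays and filled points passed the test: 0 at day 3, 1 at day 28 (Col15a1) and 14 at day 42.

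The day 42 difference is, by arithmetic, the difference at an earlier day plus the move of the diabetic rats from that day minus the move of the control rats. From day 28 to day 42 the diabetic rats fell on 12 of 16 probe sets, covering 7 of the 9 genes, where 7.97% of all probe sets fell. The control rats fell on 1, Col5a2, and rose on 2, Col5a1 and P4ha1, where 5.03% of all probe sets fell and 4% rose. These 3 counts rest on arrays of different rats at each day, and the diabetic rats of day 42 were lighter than those of day 28. The moves of the control rats, called or not, were below 0 on 13 of the 16 probe sets, and 9 of the 16 had an unadjusted p under 0.05, where 25.1% of all probe sets did.

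**Figure D3:**
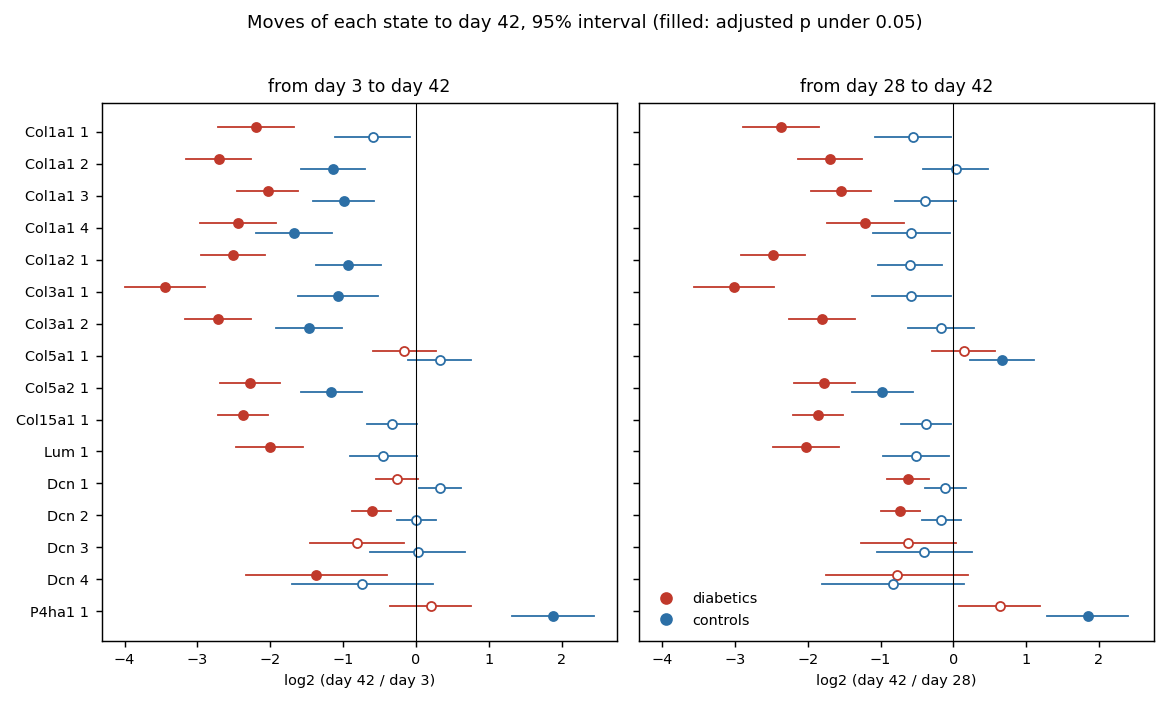
Log2 change of each state from day 3 (left) and from day 28 (right) to day 42 for the 16 probe sets, with diabetic rats in red above control rats in blue. Lines are 95% intervals and filled points passed the test. On the right the red points of the type I, III and XV collagens and Lum lie far left of 0 with open blue points nearer to 0, while P4ha1 and Col5a1 have filled blue points to the right of 0.

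For Col3a1 the diabetic rats fell by 3.01 on the log2 scale between day 28 and day 42 (8.08-fold, SE 0.27, limma adjusted p = 5.3e-08). Control rats moved by -0.57 ± 0.27 (SE, limma adjusted p = 0.18). With the day 28 difference of -0.41, these moves add up to the -2.85 of day 42. Col1a2 had the same make-up, with -2.47 ± 0.21 in diabetic rats and -0.60 ± 0.21 in control rats (SE, limma adjusted p = 4.5e-08 and 0.08). The leading Col1a1 probe set moved by -2.36 ± 0.25 in diabetic rats and by -0.55 ± 0.25 in control rats (SE, limma adjusted p = 9.4e-07 and 0.17). Lum moved by -2.02 ± 0.22 in diabetic rats and by -0.51 ± 0.22 in control rats (SE, limma adjusted p = 1.2e-06 and 0.15). For Col15a1 the diabetic rats moved by -1.86 ± 0.17 and the control rats by -0.38 ± 0.17 (SE, limma adjusted p = 5.6e-08 and 0.15), on top of the -0.71 already present at day 28. In these 5 genes the signal fell further in diabetic than in control rats, and the difference of day 42 is mainly that excess. Each move by itself cannot be told apart from a change of scan day or operator.

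Col5a2 fell in both states, by 1.77 in diabetic rats (SE 0.20, limma adjusted p = 2e-06) and by 0.98 in control rats (SE 0.20, limma adjusted p = 0.0033) on the log2 scale. Its control signals were 1811 to 2229 at day 42, against 3502 to 4380 at day 28. The fall of the controls was not called with the chip lot as a block.

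In P4ha1 and Col5a1 the control rats rose. Control signals of P4ha1 lay between 3184 and 4638 at day 42 and between 708 and 1568 at day 28, a log2 change of 1.84 ± 0.27 (SE, limma adjusted p = 0.00015). Its diabetic signals lay between 1262 and 2650 at day 42 and between 687 and 1607 at day 28, and the change of 0.63 ± 0.27 was not called (SE, limma adjusted p = 0.11). Col5a1 rose by 0.67 ± 0.21 in control rats, with 2495 to 3331 at day 42 and 1385 to 2514 at day 28, and moved by 0.14 ± 0.21 in diabetic rats (SE, limma adjusted p = 0.047 and 0.68). A Col5a1 difference of -0.47 was already present at day 28, where it was not called, beside -0.99 at day 42. The call on Col5a1 in control rats lay just inside the threshold and was lost on leaving out any of 5 arrays (control replicates 3 or 4 of day 28, or control replicates 2, 3 or 4 of day 42) and under 6 other settings, with values from 0.52 to 0.85. The 2 leading Dcn probe sets fell in diabetic rats, by 0.62 and 0.73 on the log2 scale, and moved by -0.11 and -0.16 in control rats, which were not called. The fall of the first was not called with the chip lot as a block (-0.52, limma adjusted p = 0.059).

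Measured from day 3, 12 of the 16 probe sets fell in diabetic rats and 7 in control rats. Diabetic rats were lower at day 42 than at day 3 on those 12, where 11.1% of all probe sets were, with a log2 change of -3.45 ± 0.27 for Col3a1 (SE, limma adjusted p = 3.3e-09). Without replicate 3 of the diabetic rats at day 42 the diabetic count was 11. The dimmest Dcn probe set then lost its call, at -1.13 (limma adjusted p = 0.13) beside -1.37 with all arrays. That call was lost on leaving out any of 6 arrays, replicate 3 among them, and under 4 other settings. Control rats were lower on those 7, where 10.9% of all probe sets were, with Col3a1 at -1.07 ± 0.27 (SE, limma adjusted p = 0.0076). Control rats were higher on 1, P4ha1, at 1.88 ± 0.27 (SE, limma adjusted p = 4e-05), where 7% of all probe sets were higher. Between days 3 and 28 the same 3 probe sets were lower at day 28 in each state, namely the second and the dimmest of Col1a1 and the second of Col3a1, where 4.18% of all probe sets fell in diabetic rats and 5.38% in control rats. The leading probe sets of Col1a1 and Col3a1 were not called in that interval, so the probe sets of a gene disagree there: the leading Col1a1 probe set moved by 0.16 in diabetic rats and -0.04 in control rats, the second by -1.01 in diabetic rats and -1.17 in control rats. Without control replicate 3 of day 28 the control count was 2. Without replicate 1 of the diabetic rats at day 3 the diabetic count was 5, and it was 2 without replicate 4 of day 3 or replicate 2 of day 28.

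The change of the difference between days was tested directly as an interaction, in which a shift shared by all arrays of a day cancels. A shift between fluidics stations does not cancel, since the states were spread unevenly over the stations at days 3 and 28. From day 28 to day 42 the difference became more negative on 8 of 16 probe sets, where 0.801% of all probe sets did, and these covered Col1a1 (3 of 4 probe sets), Col1a2, both Col3a1 probe sets, Col15a1 and Lum. From day 3 it became more negative on 9 of 16, where 1.3% of all probe sets did, now with Col5a2 and P4ha1 and with 2 of the 4 Col1a1 probe sets. The size for Col3a1 was -2.44 ± 0.38 from day 28 and -2.38 ± 0.38 from day 3 (SE, limma adjusted p = 0.00078 and 0.00058). For P4ha1 the difference changed by -1.68 ± 0.38 from day 3 (SE, limma adjusted p = 0.018), and by -1.21 from day 28, which was not called (SE 0.38, limma adjusted p = 0.21). Neither change was called for Col5a1 (95% interval -1.14 to 0.09 from day 28, limma adjusted p = 0.70) or for any Dcn probe set. Without replicate 3 of the diabetic rats at day 42 the counts were 10 from day 28 and 11 from day 3. The count from day 3 was 6 without control replicate 1 or diabetic replicate 4 of day 3, when P4ha1 lost its call. With the scan day as a block Lum lost its call from day 28 (-1.42, limma adjusted p = 0.056), and with the chip lot as a block the leading Col1a1 probe set lost its call from day 3 (-1.49, limma adjusted p = 0.079). With the station as a block Col5a2 and the second Col3a1 probe set lost their calls from day 3, and no call from day 28 was lost. Of the 16 fits that each leave out 1 array, 13 lost the call of the third Col1a1 probe set from day 28, 13 that of Col5a2 from day 3 and 11 that of the second Col3a1 probe set from day 3.

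The 3' to 5' signal ratio of the array's hexokinase control, a measure of how complete the labelled RNA is, also moved between days. Its range at day 42 was 2.60 to 3.90 in diabetic rats and 3.13 to 5.07 in control rats. At day 28 it was 1.43 to 1.89 in diabetic rats and 1.61 to 2.58 in control rats. At day 3 it was 1.61 to 2.77 in diabetic rats and 1.84 to 2.03 in control rats. The ratio was thus higher at day 42 than at day 28 in both states, overlapping between the states, and in diabetic rats it overlapped with that of day 3. The same ratio of the beta-actin control had medians of 1.21 at day 42 and 1.20 at day 28 in diabetic rats and of 1.20 at day 42 and 1.38 at day 28 in control rats. That of GAPDH had medians of 1.11 at day 42 and 1.05 at day 28 in diabetic rats, and of 1.17 at day 42 and 1.09 at day 28 in control rats. At day 42 the GAPDH ratio did not overlap between the states, at 1.087 to 1.138 in diabetic rats and 1.141 to 1.225 in control rats. The part of these ratios in the moves between days and in the day 42 differences was not tested.

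RefSeq (GRCr8) gave a start for 6 of the 9 genes, and for Col1a2, Col15a1 and Col5a2 the 250 bases before it end where the gene's span begins. These 3 windows are printed for that reason, and all 3 genes fell in diabetic rats between days 28 and 42. Whether the annotated start is where transcription begins was not checked, so a window may hold transcribed bases. Col1a1, Col3a1, Lum and Dcn fell over the same interval and are not shown. Each is written 5′ to 3′ on the gene's strand. Capitals mark matches, on either strand, to the box CCAAT, to the TATA box searched as TATAAA, or to the GC box searched as GGGCGG.
Col1a2, chr4:33518307-33518556, plus strand: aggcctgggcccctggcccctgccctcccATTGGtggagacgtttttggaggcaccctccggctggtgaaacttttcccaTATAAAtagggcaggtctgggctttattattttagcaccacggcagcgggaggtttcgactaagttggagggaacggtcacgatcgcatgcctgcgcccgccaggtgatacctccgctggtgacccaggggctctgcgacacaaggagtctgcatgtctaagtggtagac
Col15a1, chr5:66297296-66297545, plus strand: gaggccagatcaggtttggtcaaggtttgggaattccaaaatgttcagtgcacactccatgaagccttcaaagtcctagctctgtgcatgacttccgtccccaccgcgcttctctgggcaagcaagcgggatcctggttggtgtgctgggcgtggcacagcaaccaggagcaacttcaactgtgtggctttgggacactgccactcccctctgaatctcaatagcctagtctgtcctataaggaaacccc
Col5a2, chr9:55090152-55090401, minus strand: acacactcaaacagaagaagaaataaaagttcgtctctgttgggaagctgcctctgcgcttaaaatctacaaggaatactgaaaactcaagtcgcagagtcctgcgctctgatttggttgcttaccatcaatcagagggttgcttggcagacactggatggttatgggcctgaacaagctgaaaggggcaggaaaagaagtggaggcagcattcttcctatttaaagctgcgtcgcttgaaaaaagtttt
Col1a2 held CCAAT on the opposite strand at -221 to -217 and TATAAA on its own strand at -170 to -165, counted back from -1 at the base before the start. The other 2 windows held none of these letters. Among 27457 RefSeq promoter windows of this length, 34.3% held CCAAT, 13.1% TATAAA and 32.4% GGGCGG on either strand. The G and C content of the windows was 58.4% for Col1a2, 54.0% for Col15a1 and 44.8% for Col5a2. The matches are a description of the letters only.

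Among the members, 2 pairs are immediate neighbours on a chromosome in GRCr8, with 0 annotated genes between them. Lum and Dcn form 1 pair and differed by -1.67 and -0.49 on the log2 scale at day 42. Col3a1 and Col5a2 form the other, with -2.85 and -1.15. Neighbouring genes thus had day 42 differences of unlike size, although the difference between genes was not tested.

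Across the 24 arrays the leading probe sets of Col1a1, Col1a2, Col3a1, Col5a2, Col15a1 and Lum ran together, with Pearson's r from 0.89 (Col1a1 with Col15a1) to 0.96 (Col1a1 with Lum). Within groups, after each group's mean was removed, the same pairs had r from 0.42 (Col1a1 with Col15a1) to 0.77 (Col1a1 with Lum). Col5a1 and P4ha1 did not run with them, at r = 0.14 and -0.29 with Col1a1, and Dcn lay between at 0.60. These values share arrays and group means and are descriptions without a test. The 4 Col1a1 probe sets correlated at 0.73 to 0.95 with each other, the 2 Col3a1 probe sets at 0.93, and the 4 Dcn probe sets at 0.41 to 0.70.

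Among other genes of collagen synthesis, those called at day 42 were lower. Of 11 tested genes of collagen processing, 2 were lower in diabetic rats and 0 higher, where 5.63% of all probe sets were lower and 5.8% higher, with a list median of -0.41. Serpinh1, the collagen chaperone of the endoplasmic reticulum, had 4138, 3758, 6974 and 4198 in diabetic rats, against 8006, 8234, 9744 and 8320 in control rats. The groups lay apart with replicate 3 nearest to the controls, at -0.89 ± 0.20 on the log2 scale (SE, limma adjusted p = 0.003). Plod1, a lysyl hydroxylase of collagen, differed by -0.91 ± 0.24 (SE, limma adjusted p = 0.012), and like P4ha1 it rose in control rats from day 28, by 0.94 ± 0.24 (SE, limma adjusted p = 0.016), while diabetic rats moved by -0.08. Loxl1, a collagen cross-linking oxidase, had -0.76 and Plod2 -0.46, neither of which was called by its brightest probe set. A second Loxl1 probe set gave -0.79 and was called (limma adjusted p = 0.049). P4hb, the partner subunit of P4ha1 in prolyl 4-hydroxylase, had -0.41 and was not called (SE 0.18, limma adjusted p = 0.17).

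**Figure D4:**
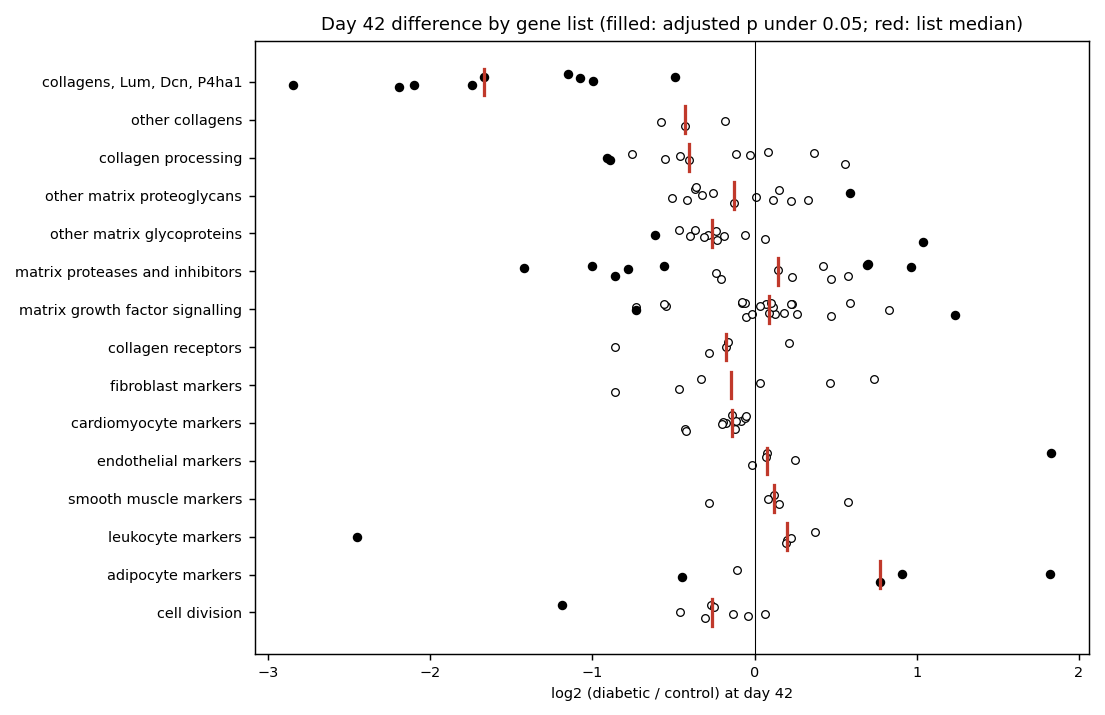
Log2 difference between diabetic and control rats at day 42 for each gene (1 probe set per gene) of 15 lists, the 9 genes in the top row. Filled points passed the test and red bars mark list medians, which lie at -1.67 for the 9 genes and between -0.43 and 0.77 for the other 14 lists.

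Few of the other collagens, proteoglycans and glycoproteins of the matrix were called, and these in both directions. None of the 3 tested other collagens was called, with Col4a5, a basement membrane chain, at -0.57 ± 0.27 (SE, limma adjusted p = 0.19). Of 13 other proteoglycan genes 1 was higher and 0 lower, and of 12 matrix glycoprotein genes 1 was higher and 1 lower. Over all tested probe sets 5.8% were higher and 5.63% lower, so these counts lie near the shares of the array. The higher proteoglycan was Cspg4, a pericyte surface proteoglycan, at 0.59 ± 0.18 (SE, limma adjusted p = 0.032). Lamb2, the laminin beta-2 chain of basement membranes, was the higher glycoprotein, with 15472, 15908, 10577 and 16345 in diabetic rats, against 6922, 7024, 6844 and 7204 in control rats. Its signal in diabetic rats was 2.05-fold that of control rats, without overlap (1.04 ± 0.14 on the log2 scale, SE, limma adjusted p = 8.8e-06). Mgp, the matrix Gla protein that inhibits calcification, was lower at -0.62 ± 0.18 (SE, limma adjusted p = 0.025). Among values not called, Bgn (biglycan, a close relative of decorin) had 0.01, Fn1 (fibronectin) 0.07 and Sparc (a collagen-binding glycoprotein) -0.23. These 3 were named after their values were seen.

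Of 15 genes of matrix proteases and their inhibitors, 5 were lower and 3 higher at day 42, where 5.63% of all probe sets were lower and 5.8% higher. Ctsk, a collagen-cleaving cysteine protease, had 296, 193, 240 and 168 in diabetic rats, against 563, 593, 647 and 545 in control rats, without overlap. Its log2 change was -1.42 ± 0.21 (SE, limma adjusted p = 2.6e-05). Serpine2, an inhibitor of serine proteases, was lower, at 501 ± 121 in diabetic rats and 999 ± 213 in control rats (SD, n = 4 each, limma adjusted p = 0.0013). The other 3 that were lower were Mmp2 (gelatinase A) at -0.78, Mmp23 at -0.86 and Timp2, an inhibitor of metalloproteinases, at -0.56. Higher were Ctsl (cathepsin L) at 0.70 ± 0.13, Plat (tissue plasminogen activator) at 0.97 ± 0.24 and Mmp14, a membrane-bound metalloproteinase, at 0.69 (SE, limma adjusted p = 0.00053 and 0.0079 for Ctsl and Plat). Mmp2, Mmp14, Mmp23 and Timp2 were named after their values were seen.

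Among 23 genes of matrix growth factor signalling, 1 was higher and 1 lower, near the 5.8% higher and 5.63% lower of all tested probe sets. Tgfb2, a transforming growth factor beta, had 429, 684, 672 and 662 in diabetic rats, against 375, 294, 363 and 106 in control rats, at 1.24 ± 0.34 on the log2 scale (SE, limma adjusted p = 0.015). Its relative Tgfb3 had 1038, 1034, 1027 and 998 in diabetic rats, against 2009, 1262, 1720 and 1903 in control rats, at -0.73 ± 0.19 (SE, limma adjusted p = 0.0092). The groups lay apart in both genes. A second Tgfb3 probe set gave -0.36 and was not called. Of 5 collagen receptor genes 0 were called, with Ddr2, a receptor for fibrillar collagen on fibroblasts, at -0.86 ± 0.32 (SE, limma adjusted p = 0.085).

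The tissue was checked against cell type markers, where 5.63% of all tested probe sets were called lower and 5.8% higher at day 42. Of 11 cardiomyocyte markers 0 were called at day 42, and their summed signal was 505104 to 687684 in diabetic rats and 582473 to 781360 in control rats. Of 6 tested fibroblast markers 0 were called, with 3 of the log2 changes below 0 and 3 above, and a median of -0.15. The brightest, Vim (vimentin, an intermediate filament protein), had -0.33. These signs, the median and the Vim value include replicate 3, and values without it are not given. The summed signal of the 7 fibroblast markers on the array, tested or not, was 9189 to 18631 in diabetic rats and 12266 to 13845 in control rats. Replicate 3 was the highest, and the other 3 diabetic arrays, up to 10953, lay below every control. Of 5 tested leukocyte markers 1 was lower, Cd74, the invariant chain of class II antigen presentation, at -2.45 ± 0.22 (SE, limma adjusted p = 3.6e-08). The other 4, which were not called, had log2 changes above 0, and the list median was 0.20. These signs and the median include replicate 3, and values without it are not given. For Lyz2, 1 of these 4, the other 3 diabetic arrays all lay below every control. The leukocyte sum was taken over the 7 markers on the array, tested or not. It was 6236 to 24197 in diabetic rats, or up to 7501 without replicate 3, and 17256 to 19791 in control rats. Such sums of linear signals weigh bright markers most, and the parts of Cd74 and Lyz2 in this one were not separated. Endothelial markers summed to 4722 to 6633 in diabetic rats and 3364 to 4531 in control rats, with 1 of 5 higher, Kdr, a receptor for vascular endothelial growth factor, at 1.83 ± 0.31 (SE, limma adjusted p = 0.00017). No marker of these 4 lists was at the floor on every array. Of 5 smooth muscle markers 0 were called. Of 5 tested adipocyte markers 3 were higher and 1 lower, with a list median of 0.77. The higher ones were Fabp4, a fatty acid binding protein, at 0.77, the hormone-sensitive lipase Lipe at 0.91 and Cfd (adipsin) at 1.82, and the lower one was Lpl, lipoprotein lipase, at -0.45 (limma adjusted p = 0.029, 0.0016, 0.0085 and 0.045 in this order). Other tested Lpl probe sets gave -0.44 and -0.36 and were not called (limma adjusted p = 0.23 and 0.15). Cfd was named after its value was seen. The adipocyte sum, over the 6 markers on the array, was 37609 to 50677 in diabetic rats and 37943 to 46443 in control rats. Of 8 tested genes of cell division 1 was lower, the cyclin gene Ccnd1, at -1.19 ± 0.24 (SE, limma adjusted p = 0.0012), while 1 of its 3 other tested probe sets had 0.42 and was not called. In RNA of a whole ventricle, fewer cells of a type and less RNA per cell cannot be told apart, and the part of these markers in the collagen differences was not tested.

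Genes with the profile most like the mean of Col1a1, Col1a2 and Col3a1 were sought among 3131 tested genes, by Pearson's r over the 24 arrays. Ctsk came first at r = 0.94, and still had r = 0.67 within groups. The class II antigen presentation gene RT1-Da followed at 0.91, but its r within groups was -0.03. RT1-Db1, of the same class, had 0.89, the secreted glycoprotein gene Fstl1 0.89, and Ptgfrn 0.88. Cnn3, Kcnq1, Id2, Lims1 and RT1-Bb completed the first 10, down to 0.81. With Lum alone the 5 most alike were Ctsk at 0.93, Fstl1 at 0.90, Id2 at 0.89, RT1-Da at 0.87 and Ptgfrn at 0.87.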

How the data were processed

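Total RNA of 24 rat ventricles was hybridised to 1 array each. Per the submitters' processing notes, MAS5 made the deposited signal intensity, a linear brightness per probe set, and its version was not stated there. The deposited intensity table had a trimmed mean of 1502 to 1503 on every array, with 2% trimmed at each end. The run-setting files deposited with the arrays hold no expression value and gave scan day, chip lot, station and operator, recorded as other values per the file headers.

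Signals below 30.5, the 10th percentile of all pooled values, were set to it before taking log2. Probe sets with a mean log2 of 7.70 or more (the 40th percentile) were tested, 5244 of 8740. limma 3.58.1 (R 4.3.3) fitted 6 group means with trended, robust eBayes, and p-values were adjusted by Benjamini-Hochberg over all tested probe sets, with a threshold of 0.05. Differences between days and their interaction with diabetes came from the same fit. The number of arrays, 4 a group, limits the precision. Nothing in the labels ties diabetic and control replicate numbers to a shared batch, and deviations from the group means correlated above 0.1 in 2 of 12 same-numbered pairs (r from -0.19 to 0.40), so numbers were not used as pairs.

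Of the probe sets, 7006 had 1 gene symbol in the platform annotation, 308 several and 1426 none. Each gene is led by its probe set with the highest mean. Members, the 15 gene lists and the settings were chosen with earlier results of these data known. From each matrix list up to 4 genes with the smallest day 42 adjusted p were named, from each marker list up to 3 by mean signal, and the 10 and 5 genes of most similar profile, with exceptions stated. The fit was checked on simulated data. Probe sets shared by similar sequences (suffix s) may read related transcripts. Alternatives are given in the closing section.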

Additional observations from a re-analysis of the deposited data

Results flagged for a closer look

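In 1 of 96 groups of 4 arrays a sample lay far from the others on the log2 scale: the leading Dcn probe set read 61099 in replicate 3 of the diabetic rats at day 28, against 45074 to 45930 in the other 3. Chance alone flags about 1 in 20 such groups.

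The diabetic difference changed between days by a direct interaction test on 17 occasions, given here as log2 values. From day 28 to day 42 it changed by -1.81, -1.73 and -1.15 for the 3 brightest Col1a1 probe sets in order, by -1.87 for Col1a2, by -2.44 and -1.63 for the first and second Col3a1 probe sets, by -1.48 for Col15a1 and by -1.51 for Lum. From day 3 to day 42 it changed by -1.60 and -1.57 for the first and second Col1a1 probe sets, by -1.59 for Col1a2, by -2.38 and -1.25 for the first and second Col3a1 probe sets, by -1.12 for Col5a2, by -2.04 for Col15a1, by -1.56 for Lum and by -1.68 for P4ha1. The 2 sets of values share the arrays of day 42.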

How the results depend on the processing

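No called value of a member probe set changed direction under the alternatives run. Values that were not called, among them all those of day 3, were not rerun one by one. The count of 14 lower probe sets at day 42 was 13 to 14 under 13 other settings and 12 to 14 with single arrays left out, where only the first or second Dcn probe set lost its call. The single call at day 28 (Col15a1) became 0 under median centring, with only the groups compared and with station as a block, and 0 to 1 with arrays left out. The count of 3 for diabetic rats from day 3 to day 28 became 1 with station as a block and ran from 2 to 5 with arrays left out. For control rats over the same interval it ran from 2 to 4. The count of 3 for control rats from day 28 to day 42 became 1 with chip lot as a block and ran from 2 to 4 with arrays left out. Over single arrays left out, diabetic rats had 12 to 13 calls from day 28 to day 42 and 11 to 12 from day 3, control rats 8 to 8 from day 3, and the change of the difference 7 to 10 from day 28 and 6 to 11 from day 3. At day 3 the count stayed at 0. The cause of these moves was not tested. A fit with the replicate block gave 14 calls at day 42 and changed no other count by over 1.5 times. Scan day as a block gives no value for moves between days, since no scan day holds arrays of 2 days, nor does chip lot against day 3. Scan day as a random block (consensus correlation 0.039) and the values within batches were added after seeing the data.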
